A study of Mus musculus with 4 samples.

Results

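The nuclear genes for the respiratory chain and ATP synthase were followed in blood cells of mice of the B16 and CT-26 tumour models. The members were the protein-coding genes whose names begin with Ndufa, Ndufb, Ndufc, Ndufs, Ndufv, Uqcr, Cox4 to Cox8 or Atp5, and the genes Sdha to Sdhd. This name rule took 92 of the 53801 genes in each table. They comprised 36 subunits of complex I, 8 Ndufaf assembly factors of complex I, 4 subunits of complex II, 8 of complex III, 19 of complex IV and 15 of ATP synthase (complex V). The remaining members were Cox7a2l, a factor that joins complexes III and IV into supercomplexes, and Atp5s, a coupling factor of ATP synthase. The members therefore held 82 subunits and 10 genes that code for no subunit.

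Complexes I and II take electrons from NADH and succinate, complex III passes them to cytochrome c, and complex IV hands them to oxygen. Complexes I, III and IV pump protons across the inner mitochondrial membrane, and ATP synthase uses the resulting gradient to make ATP. Each complex except complex II joins nuclear subunits with subunits encoded in mitochondrial DNA. In lymphocytes, activation and the formation of memory cells are known to change the demand on this machinery.

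RNA was sequenced from 4 libraries, 1 per group, so no value within a model has a replicate. The models are named after transplantable mouse tumour lines, of melanoma for B16 and of colon carcinoma for CT-26. In each model a library of CD8+ lymphocytes that bound tumour-reactive multimers, labelled CTRL for circulating tumor-reactive lymphocytes, stood beside a library labelled the residual of the CD8+ lymphocytes. All 4 were labelled as primary cells of wild-type (WT) mice, purified from peripheral blood mononuclear cells. Strain, age, number of animals and any pooling are not given in the sources used here.

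The libraries held between 37166063 and 74879891 reads in genes. The 8 CD8 T cell markers were all higher in CTRL in both models, but Cd8a, which codes for a chain of the CD8 receptor, had 84.9 normalized counts in the B16 library labelled residual and 12059 in B16 CTRL. In CT-26 it had 579 and 42367, so the CD8+ label of the residual libraries goes against this marker. Haemoglobin genes took 42.0% of reads in the B16 residual library, 1.28% in B16 CTRL, 10.8% in the CT-26 residual library and 0.629% in CT-26 CTRL. All 8 neutrophil markers were detected in both residual libraries, and 3 of them were at 0 reads in B16 CTRL. The 8 B cell markers summed to 6379 CPM in B16 CTRL, above the 3946 CPM of the CD8 T cell markers there, and to 748 CPM in the B16 residual library, 233 CPM in CT-26 CTRL and 808 CPM in the CT-26 residual library. CPM are reads scaled to the total of the library. Of these B cell markers 7 were higher in B16 CTRL, with a median log2 ratio of 2.40, and all 8 were lower in CT-26 CTRL, with -2.02. The 8 monocyte markers summed to 9581 CPM in the CT-26 residual library and 348 CPM in CT-26 CTRL. In B16 they summed to 4993 CPM in the residual library and 3198 CPM in CTRL. The 8 NK cell markers summed to 2221 CPM in the CT-26 residual library and 486 CPM in CT-26 CTRL, and to 369 and 396 CPM in B16. The groups thus differed in markers of other cell types as well as in multimer binding, and in bulk RNA fewer cells of a type and less RNA per cell cannot be told apart.

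The main value for a gene was the log2 ratio of its deposited normalized counts, CTRL over residual, with 1 added to each. Genes are called higher or lower below where the ratio was at least 1 in size, which is 2-fold, and the higher of both libraries reached a level of 10 CPM. Of the 92 members, 85 reached the level in B16 and 82 in CT-26. Intervals given after a ratio are exact 95% intervals for counting error only.

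In B16 CTRL, 3 members were higher and 19 were lower, beside 26.8% of all 9289 genes at the level that were higher and 11.7% that were lower. The 3 members are 3.53% of the 85 and the 19 are 22.4%. In CT-26 no member was higher and no member was lower, where 14.5% of 9514 genes were higher and 16.3% were lower. The median ratio of the members was -0.18 in B16 and -0.28 in CT-26. The median over all genes at the level was 0.47 in B16 and 0.23 in CT-26, so the members lay lower by 0.65 in B16 and by 0.51 in CT-26. The B16 counts and the sign of the B16 median depend on the scaling. With libraries scaled to all reads in genes, 28 members were higher and 2 were lower in B16, the median was 0.66 and that of all genes was 1.32, with the same distance between them. That median of all genes is past the 2-fold limit, so most genes at the level were higher there, against 28 of the 85 members. In CT-26 that scaling gave -0.09 for the members and 0.42 for all genes.

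**Figure D1:**
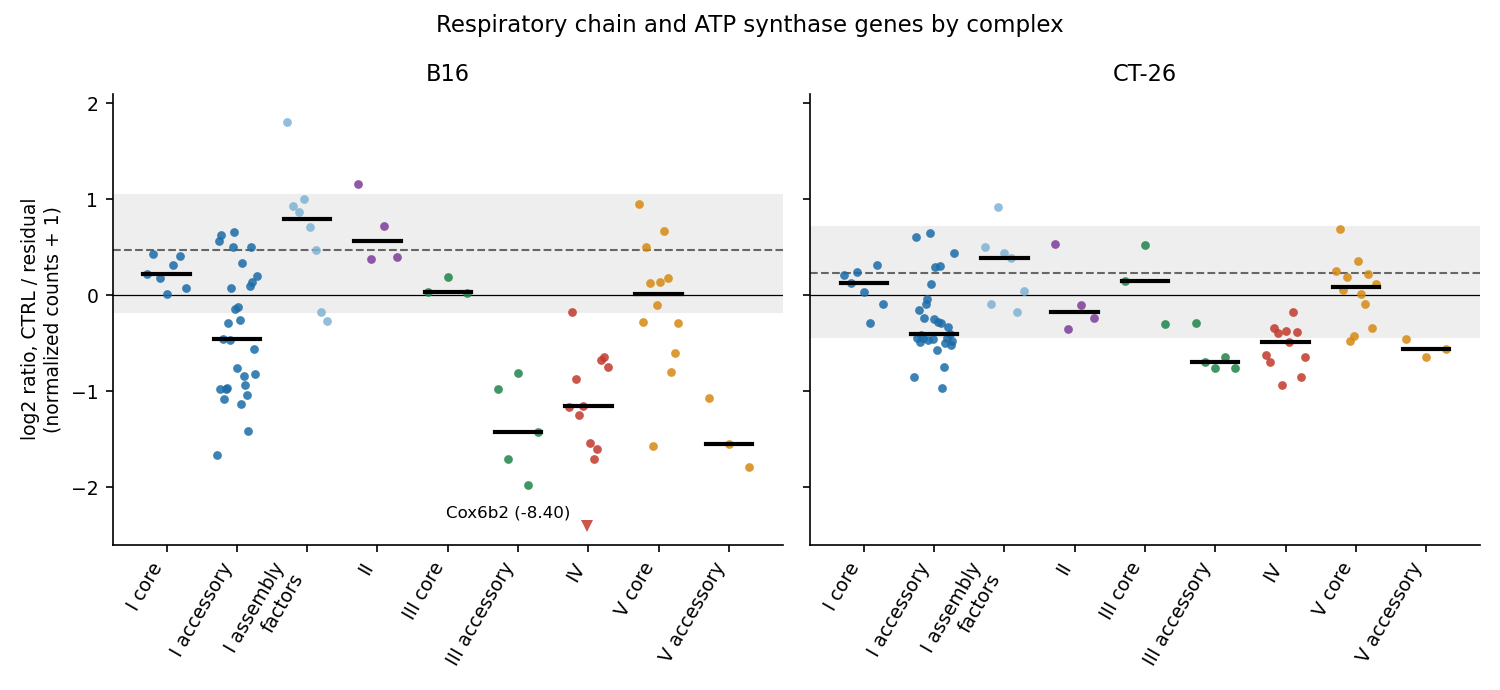
Log2 ratio of normalized counts, CTRL over residual, for each member at the level in B16 (left) and CT-26 (right), by complex and role. Each point is a gene, black bars are medians, the dashed line is the median of all genes at the level (0.47 and 0.23), the grey band holds their middle quartiles, and the triangle stands for Cox6b2, which lies below the axis at -8.40. Accessory subunits of complexes III and V and the subunits of complex IV lie lowest in B16.

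The plot of ratios by complex shows a spread between complexes in B16. There, the median was 0.79 for the complex I assembly factors, 0.56 for complex II, -0.13 for complex I, -0.28 for complex V, -0.89 for complex III and -1.16 for complex IV. In CT-26 the medians, in the same order, were 0.38, -0.17, -0.28, 0.01, -0.47 and -0.49. Complex IV was the lowest complex in both models. With libraries scaled to all reads in genes, the B16 medians of complexes I and V turned positive, at 0.71 and 0.56, and those of complexes III and IV were -0.05 and -0.32. The distance from the highest to the lowest of the 5 complexes was 1.72 in B16, from II to IV, and 0.50 in CT-26, from V to IV.

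Complex I, the NADH dehydrogenase, has 7 nuclear core subunits that carry its flavin and iron-sulfur centres and 29 accessory subunits that surround them. All 7 core subunits lay above 0 in B16, as did 6453 of all 9289 genes, and the highest, at 0.43, lay below the median of all genes, 0.47. In CT-26 they lay between -0.29 and 0.31. Ndufs1, the large subunit that holds iron-sulfur clusters, had 2547 normalized counts in B16 CTRL and 2192 in the B16 residual library, and 6304 and 5453 in CT-26. Its ratio was 0.22 (0.13 to 0.30) in B16 and 0.21 (0.16 to 0.26) in CT-26, close to the median of all genes in CT-26 and below it in B16. Ndufv1, which binds NADH and flavin, had 3623 and 2731 normalized counts in B16 and 7494 and 6049 in CT-26, with ratios of 0.41 and 0.31. Both core genes differed by less than 2-fold in each model.

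The accessory subunits of complex I reached further down. Their median was -0.45 in B16 and -0.40 in CT-26, and 5 of 29 were lower in B16, namely Ndufa1, Ndufa2, Ndufb4, Ndufb8 and Ndufb9. Ndufa1, a small membrane subunit of the complex, had the lowest ratio of complex I in B16. It had 2307 normalized counts in B16 CTRL against 7340 in the residual library, and 3395 against 6135 in CT-26. Its ratio was -1.67 (-1.73 to -1.61) in B16 and -0.85 (-0.91 to -0.79) in CT-26. Ndufb7 had the lowest ratio of complex I in CT-26, with 3823 against 7301 normalized counts in B16 and 5332 against 10416 in CT-26. Its ratios of -0.93 and -0.97 were nearly the same in the models, just short of 2-fold in both. At the other end stood Ndufab1, the mitochondrial acyl carrier protein, with 0.66 in B16, and Ndufa9, which binds a nucleotide cofactor, with 0.65 in CT-26. Ndufa9 had 3589 and 2542 normalized counts in B16 and 5775 and 3685 in CT-26.

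The Ndufaf proteins help to build complex I and do not stay in it. In B16, 6 of 8 had ratios above 0, as did 6453 of all 9289 genes, and 2 were higher by 2-fold, which is 25% beside 26.8% of all genes. Ndufaf1, a chaperone of an early membrane intermediate, had 810 normalized counts in B16 CTRL and 231 in the residual library, from 1058 and 177 reads, and 1015 and 717 in CT-26. Its ratio was 1.80 (1.58 to 2.05) in B16, the highest of all members there, and 0.50 (0.36 to 0.65) in CT-26. Ndufaf4 had 1382 and 690 normalized counts in B16 and 2765 and 1468 in CT-26. Its B16 ratio was at the limit itself (0.86 to 1.15), and its CT-26 ratio of 0.91 (0.82 to 1.01) was the highest of all members in that model. Among those at the level, the lowest were Ndufaf8 in B16 (-0.27) and Ndufaf7 in CT-26 (-0.17). Ndufaf2, below the level in CT-26, had -0.56 there and 0.93 in B16. The promoter window of Ndufaf4 is shown because this gene was high in both models and its window holds the motif of the factor NRF1 more than once. The window runs from 250 bases before to 50 bases after the start of the gene (RefSeq, GRCm38.p6), is given 5′ to 3′ on the gene's strand, and capitals mark the NRF1 motif GCGCATGC on either strand.
Ndufaf4, chr4:24897833-24898132, plus strand: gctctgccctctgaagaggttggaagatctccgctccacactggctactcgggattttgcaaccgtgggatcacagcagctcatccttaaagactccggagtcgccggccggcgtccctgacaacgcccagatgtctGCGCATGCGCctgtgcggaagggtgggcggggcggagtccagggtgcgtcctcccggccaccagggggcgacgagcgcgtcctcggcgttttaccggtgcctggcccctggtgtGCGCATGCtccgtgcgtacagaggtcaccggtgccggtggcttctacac
It held 3 matches, of which a pair overlaps on opposite strands in the first run of capitals.

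Complex II, succinate dehydrogenase, is shared with the TCA cycle and is wholly nuclear encoded. All 4 subunits lay above 0 in B16, from 0.38 to 1.15, and in CT-26 only Sdha did. In B16 6453 of all 9289 genes lay above 0, and the median of all genes was 0.47, beside 0.56 for the 4 subunits. Sdha, the flavoprotein that oxidises succinate, had 11562 normalized counts in B16 CTRL and 5192 in the residual library, and 21348 and 14757 in CT-26. Its ratio was 1.15 (1.10 to 1.21) in B16, a 2.23-fold difference, and 0.53 (0.50 to 0.56) in CT-26. Sdhb, the iron-sulfur subunit, had 5864 and 4514 normalized counts in B16 but 7529 and 9647 in CT-26. Its ratios of 0.38 (0.32 to 0.44) and -0.36 (-0.40 to -0.31) thus had opposite signs. The membrane anchors Sdhc and Sdhd did likewise, with 0.72 and 0.40 in B16 and -0.10 and -0.24 in CT-26.

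Complex III, the cytochrome bc1 complex, divided by role. Its 3 nuclear members counted as core here lay near 0 in B16, from 0.02 to 0.18, while all 5 small accessory subunits lay below 0 in both models, from -1.98 to -0.81 in B16 and from -0.76 to -0.29 in CT-26. Uqcrc1, a core protein of the matrix arm, had 10511 normalized counts in B16 CTRL and 10289 in the residual library, and 19072 and 17200 in CT-26, with ratios of 0.03 and 0.15. Uqcrfs1, the Rieske iron-sulfur protein, had 4697 and 4637 in B16 and 6197 and 7634 in CT-26, with ratios of 0.02 and -0.30. Uqcrc2, the partner of Uqcrc1, was the highest of the complex in both models, with ratios of 0.18 and 0.52.

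Uqcrh, the acidic hinge protein beside cytochrome c1, had the lowest ratio of all widely expressed members in B16. It had 2701 normalized counts in B16 CTRL against 10652 in the residual library, and 5265 against 8230 in CT-26. Its ratio was -1.98 (-2.04 to -1.92), a 3.94-fold lower value, in B16 and -0.64 (-0.69 to -0.59) in CT-26. Uqcr11 (-1.70) and Uqcrq (-1.42) also passed 2-fold in B16. In CT-26 the lowest ratios were those of Uqcrb and Uqcrq, both at -0.76. The promoter window of Uqcrh is shown as that of the widely expressed member furthest below 0, with capitals for the ETS motif CCGGAAG on either strand.
Uqcrh, chr4:116075021-116075320, minus strand: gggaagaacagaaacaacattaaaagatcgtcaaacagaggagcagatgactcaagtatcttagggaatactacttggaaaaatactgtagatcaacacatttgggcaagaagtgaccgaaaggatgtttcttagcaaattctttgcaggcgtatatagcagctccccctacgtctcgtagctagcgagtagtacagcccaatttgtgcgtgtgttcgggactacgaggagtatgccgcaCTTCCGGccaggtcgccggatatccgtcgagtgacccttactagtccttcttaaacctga
The window held 1 match to the ETS motif on the opposite strand and none to the NRF1 motif or to the YY1 motif AAGATGGC.

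Complex IV, cytochrome c oxidase, has its catalytic core encoded in mitochondrial DNA, so all its nuclear members are accessory subunits. They were 11 widely expressed genes, Ndufa4 among them, and 8 isoforms known from testis, heart, muscle, lung or other restricted settings. All 11 widely expressed genes lay below 0 in both models, from -1.70 to -0.18 in B16 and from -0.93 to -0.17 in CT-26, and 6 of them were lower by 2-fold in B16. When libraries were scaled to all reads in genes, 8 of the 12 complex IV genes at the level stayed below 0 in B16 and 10 of 11 did in CT-26.

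Cox4i1, which forms a large part of the complex's nuclear shell, had 8865 normalized counts in B16 CTRL against 19871 in the residual library, and 14141 against 21826 in CT-26. Its ratio was -1.16 (-1.20 to -1.13) in B16 and -0.63 (-0.66 to -0.60) in CT-26. Cox5a, a matrix subunit, had 1975 against 2235 in B16 and 2320 against 3771 in CT-26, with ratios of -0.18 and -0.70. It was the highest of complex IV in B16 and stood among the lower genes in CT-26. Its exons share 41.7% of the transcript with another annotated gene, so its reads are uncertain. Cox7a2 had the lowest widely expressed value in B16, with 3096 against 10082 normalized counts and a ratio of -1.70. Its ratio in CT-26 was -0.49. Cox7b, at -0.17, was the highest in CT-26, where Cox6b1, a subunit that faces the intermembrane space, was the lowest, at -0.93 (-0.97 to -0.89).

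The subunit VIb isoforms held the largest difference among all members. Cox6b2 is the isoform known from testis, and Cox6b1 is the widely expressed isoform. Cox6b2 (chr7:4751792-4753094, minus strand, mm10) had 5404 reads in the B16 library labelled residual, 26 in B16 CTRL, 257 in the CT-26 residual library and 77 in CT-26 CTRL. In normalized counts these were 7058, 19.9, 334 and 59.3. The residual library was the higher in both models, and the B16 residual library stood apart from the other 3. The ratio was -8.40 (-9.09 to -7.92) in B16 and -2.47 (-2.88 to -2.12) in CT-26, where the gene missed the level of 10 CPM.

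Cox6b1 had 7710 reads in the B16 residual library, 5902 in B16 CTRL, 9339 in the CT-26 residual library and 8249 in CT-26 CTRL. Cox6b2 therefore made up 41.2% of the reads of the pair in the B16 residual library (Wilson 95% interval 40.4 to 42.1), 0.439% in B16 CTRL (0.299 to 0.642), 2.68% in the CT-26 residual library (2.37 to 3.02) and 0.925% in CT-26 CTRL (0.741 to 1.15). These shares need no scaling between libraries. The log2 fold of Cox6b2 in the authors' deposited table was -1.91 in B16 and -2.08 in CT-26, so its B16 value is far smaller in size there.

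**Figure D2:**
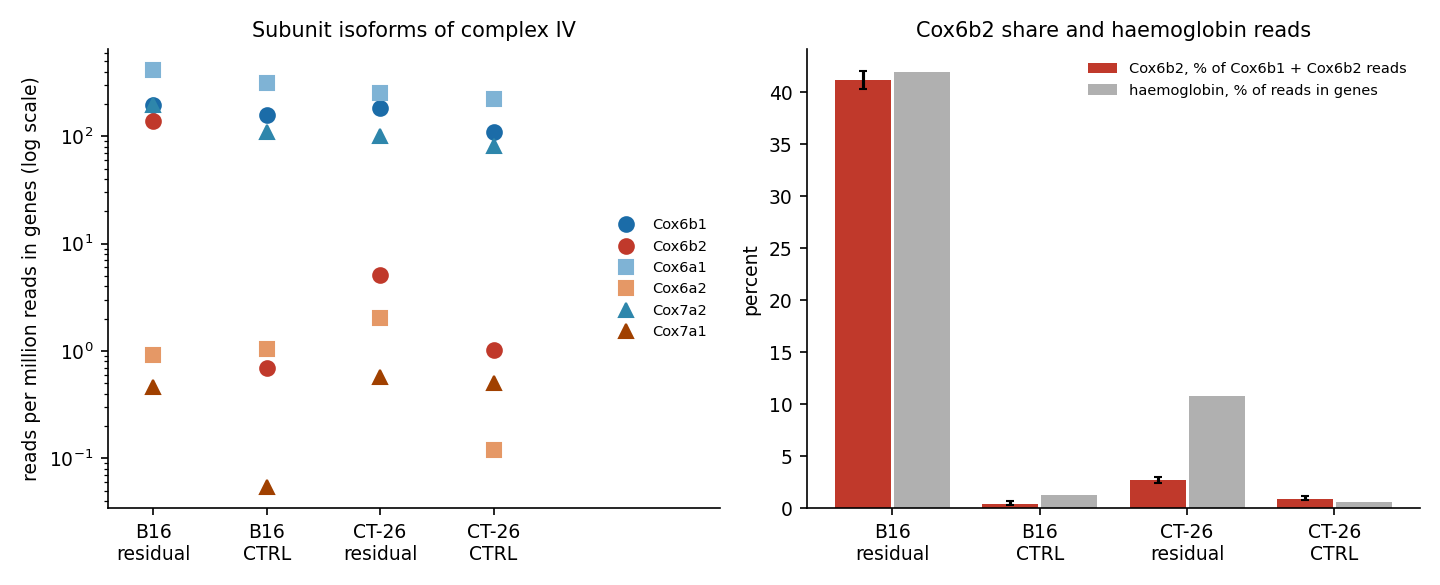
Left, level in CPM (log axis) of 3 isoform pairs of complex IV in each library. Right, the share of Cox6b2 among the reads of Cox6b1 and Cox6b2 (bars with Wilson 95% intervals) beside the share of haemoglobin among all reads in genes; both are highest in the B16 residual library, at 41.2% and 42.0%.

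The share of Cox6b2 and the share of haemoglobin reads were both highest in the B16 residual library and second highest in the CT-26 residual library. All 8 erythroid markers at the level were lower in B16 CTRL, with a median ratio of -5.88, and all 6 were lower in CT-26, with a median of -4.22. Their summed level was 426461 CPM in the B16 residual library and 109337 in the CT-26 residual library, against 13270.1 and 6442 in the CTRL libraries. Platelet markers had 720 CPM and neutrophil markers 9390 CPM in the B16 residual library, 136 and 8416 in the CT-26 residual library, 110 and 268 in B16 CTRL, and 27.3 and 88.8 in CT-26 CTRL. Both sums were thus highest in the B16 residual library as well. For the neutrophil list this rests on S100a8, with 3792 CPM there and 2529 in the CT-26 residual library, and Retnlg, with 1071 and 479. The other neutrophil markers were all higher in the CT-26 residual library. Monocyte and NK cell markers also had their highest sums in the CT-26 residual library, at 9581 and 2221 CPM. The part of any of these cells in the Cox6b2 difference was not tested. Of 8 spermatogenic markers, none reached the level in any library, Tnp1, Acrv1 and Akap4 had 0 reads in all 4, and their sum ranged from 0.885 to 3.66 CPM. The neighbouring genes did not follow Cox6b2. Fam71e2, which ends 132 bases away, had at most 6 reads in a library, and Kmt5c, a histone methyltransferase gene 4278 bases away on the other strand, had ratios of 0.84 and 0.02. The promoter windows of both isoforms are shown because they are expressed so differently, with the same marking as above.
Cox6b1, chr7:30626065-30626364, minus strand: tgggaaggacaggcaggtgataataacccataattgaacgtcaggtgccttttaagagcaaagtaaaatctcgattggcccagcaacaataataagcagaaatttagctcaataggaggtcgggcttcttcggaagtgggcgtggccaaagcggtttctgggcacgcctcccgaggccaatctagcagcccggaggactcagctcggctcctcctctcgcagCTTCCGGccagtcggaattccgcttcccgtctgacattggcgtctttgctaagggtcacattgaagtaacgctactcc
Cox6b2, chr7:4753045-4753344, minus strand: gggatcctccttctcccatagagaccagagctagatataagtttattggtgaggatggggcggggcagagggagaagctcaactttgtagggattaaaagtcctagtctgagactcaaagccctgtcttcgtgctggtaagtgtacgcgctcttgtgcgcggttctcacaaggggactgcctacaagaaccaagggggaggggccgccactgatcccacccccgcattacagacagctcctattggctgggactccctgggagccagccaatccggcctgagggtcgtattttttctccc
The Cox6b1 window held 1 match to the ETS motif and the Cox6b2 window held none to any of the 3 motifs.

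The other 7 restricted isoforms of complex IV stayed below 10 CPM in every library. Cox6a2, known from heart and muscle, had 103 reads in the CT-26 residual library and 9 in CT-26 CTRL, and 36 and 39 in B16. It made up at most 0.788% of the reads of Cox6a1 and Cox6a2. Cox7a1 ranged from 2 to 38 reads, Cox4i2 from 0 to 6, and Cox7b2 had 1 read in 1 library. Cox8b, Cox8c and Ndufa4l2 had 0 reads in all 4 libraries. For Cox8b and Cox8c a count of 0 allows a share of up to 0.0346% of the reads of the pair with Cox8a, and for Ndufa4l2 of up to 0.0648% of those with Ndufa4, both in the B16 residual library. Of 8 heart and muscle markers none reached the level.

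The core members of ATP synthase were spread more widely than those of complex III, from -1.57 to 0.95 in B16. The 12 of them had a median of 0.01 in B16, with 6 below 0, and 0.09 in CT-26, and the 3 accessory members, Atp5j2, Atp5k and Atp5l, were all lower by 2-fold in B16, from -1.79 to -1.07, and lay between -0.64 and -0.46 in CT-26. The accessory members sit in the membrane part and hold pairs of the enzyme together. Atp5a1, the alpha subunit of the catalytic head, had 25932 normalized counts in B16 CTRL and 13386 in the residual library, and 43248 and 36311 in CT-26. Its ratio was 0.95 (0.92 to 0.99) in B16, the highest of the complex, and 0.25 (0.23 to 0.27) in CT-26. Atp5b, the beta subunit that binds and makes ATP, had 29884 against 36400 in B16 and 60294 against 37315 in CT-26. Its ratio was -0.28 (-0.31 to -0.26) in B16 and 0.69 (0.67 to 0.71) in CT-26, the highest of the complex there. Of these partners in the catalytic head, Atp5a1 had the higher ratio in B16 and Atp5b in CT-26.

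Atp5l, the g subunit of the membrane part, was the lowest of ATP synthase in B16, with 791 against 2731 normalized counts and a ratio of -1.79 (-1.90 to -1.68). It has 9 near-identical copies among annotated transcripts, so its reads may be split. Atp5k, the e subunit, was the lowest in CT-26, with 1950 against 3045 normalized counts and a ratio of -0.64, and had -1.55 in B16. Atp5e, the epsilon subunit, was the only core member of the enzyme that was lower by 2-fold in B16, with -1.57. The proton-carrying ring of subunit c is made from 3 genes whose mature proteins are the same. Atp5g3 gave 61.5% of their reads in the B16 residual library, 59.9% in B16 CTRL, 69.6% in the CT-26 residual library and 64.7% in CT-26 CTRL, and led in all 4. Atp5s and Cox7a2l, which are no subunits, had ratios of 0.82 and 0.06 in B16, and Cox7a2l had 0.46 in CT-26.

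Over all complexes, the 26 core subunits had a median of 0.18 in B16 and 0.09 in CT-26. The accessory subunits had -0.85 over 49 genes at the level in B16, 18 of them lower by 2-fold, and -0.45 over 48 in CT-26. Scaled to all reads in genes, the accessory medians were -0.0037 in B16, with 24 genes above 0 and 25 below, and -0.25 in CT-26, and the core medians were 1.02 and 0.28. This contrast can be read inside a library without any scaling. Summed reads of accessory subunits were 1.65 times those of core subunits in the B16 residual library, 0.808 times in B16 CTRL, 1.11 times in the CT-26 residual library and 0.713 times in CT-26 CTRL. The ratio was higher in the residual library of each model. Leaving out the restricted isoforms changed it to 1.61 in the B16 residual library and to 0.808, 1.10 and 0.713 in the others. Other coding genes, without globins, moved the same way by transcript length. Their reads from transcripts under 1000 bases were 0.162 times those from longer ones in the B16 residual library and 0.098 times in B16 CTRL. In CT-26 the values were 0.103 and 0.066 times. The part of this general shift in the contrast of accessory and core subunits was not tested. Complex IV had 8.35 times the reads of complex II in the B16 residual library and 2.16 times in B16 CTRL, and 3.20 and 1.99 times in CT-26.

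**Figure D3:**
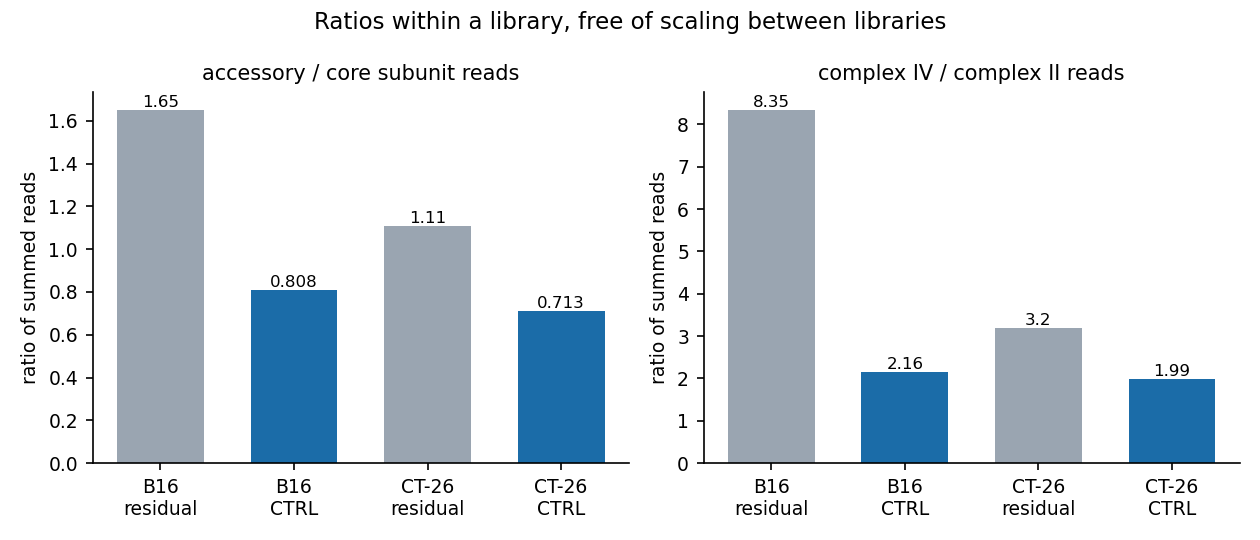
Ratio of summed reads of accessory to core subunits (left) and of complex IV to complex II (right) in each of the 4 libraries, with bars from 0. Residual libraries are grey and CTRL libraries blue; the grey bars are higher in both models, with 1.65 against 0.808 for accessory to core in B16.

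Transcript length moved with these differences. The median transcript was 1297 bases for core and 659 bases for accessory subunits at the level in B16. Across members, the Spearman correlation of length with the log2 ratio was 0.70 in B16 (85 genes) and 0.69 in CT-26 (82 genes). Across all coding genes it was 0.06 in B16 and 0.20 in CT-26. The points of a model share the same pair of libraries, so these correlations are descriptions. Within complex I, which has long and short members, the correlation was 0.71 in B16 and 0.67 in CT-26, and within complex IV it was -0.31 and 0.40.

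Coding genes as a whole also had lower median ratios in the shorter length classes. In B16 the signs of such medians can turn with the scaling, as the sign of the members' median did. Coding genes with transcripts under 600 bases had a median of -0.83 in B16 and -0.47 in CT-26, and members of that length had -0.97 and -0.47. From 600 to under 1000 bases, with 28 members in B16 and 27 in CT-26, coding genes had -0.04 and -0.21 and members had -0.78 and -0.38, so members lay further down there. At 1000 bases or more the medians were 0.50 and 0.28 for coding genes and 0.35 and 0.21 for members. With each member set against coding genes of its length class, the members' median distance was -0.24 in B16 and -0.08 in CT-26, in place of -0.65 and -0.51 against all genes. Accessory subunits were then -0.30 and -0.17 away, core subunits -0.24 and 0.07, and complex IV -0.97 and -0.20. Length classes and roles overlap in these complexes, and the part of transcript length, as of cell types, in the ratios was not tested further.

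**Figure D4:**
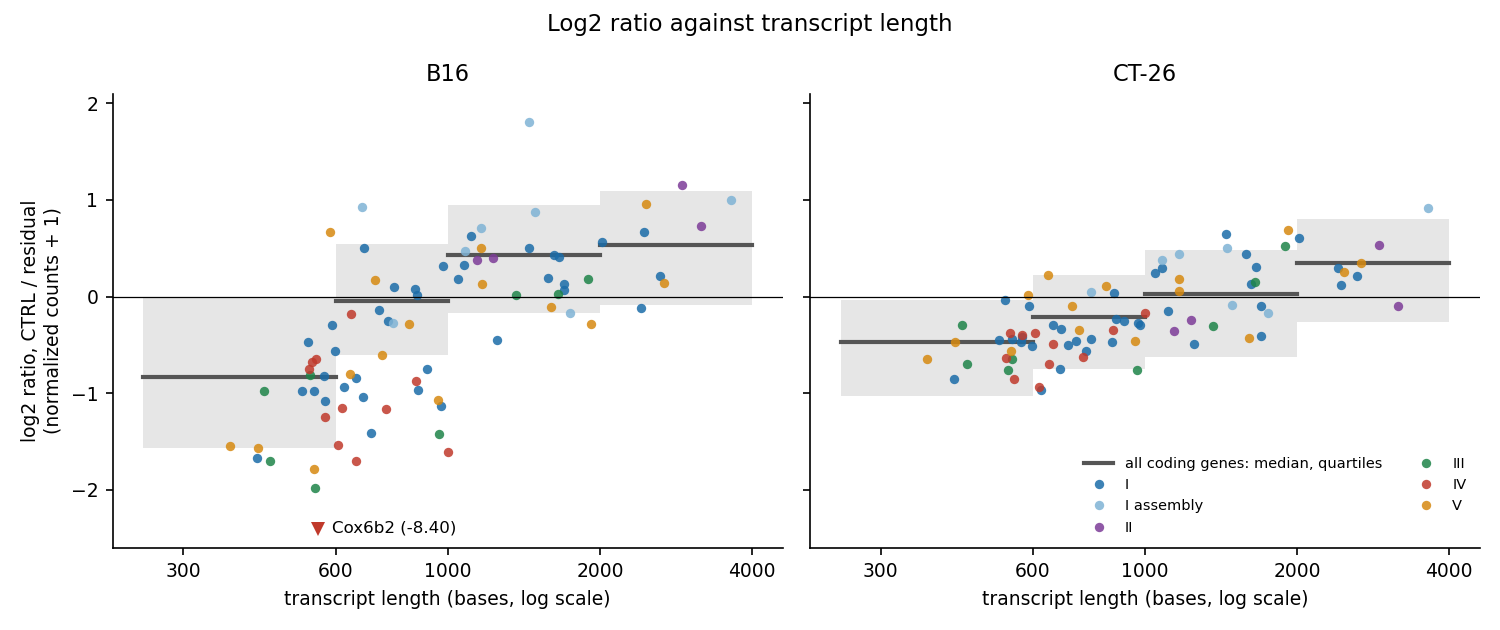
Log2 ratio, CTRL over residual, of each member at the level against its transcript length (log axis), coloured by complex, in B16 (left) and CT-26 (right). Grey bars and bands are the median and quartiles of all coding genes in 4 length classes, whose outer classes are open-ended and drawn only to the edge of the axis, and the triangle stands for Cox6b2 at -8.40; members under 600 bases have a median of -0.97 in B16 and -0.47 in CT-26.

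The members kept much of their order from model to model. Of the 82 members at the level in both, 41 had ratios below 0 in both models, 23 above 0 in both, 13 above 0 in B16 and below 0 in CT-26, and 5 the reverse. Against the median of all genes of each model, 58 lay below in both and 7 above in both. The Spearman correlation over these 82 genes was 0.71 and Pearson's r was 0.69. The same counts and correlations over all genes are not given here, so these values do not set the members apart from other genes. The spread was wider in B16, with an SD over genes of 0.81 against 0.43 in CT-26. No member passed 2-fold in CT-26, so an overlap of such calls between the models could not arise.

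**Figure D5:**
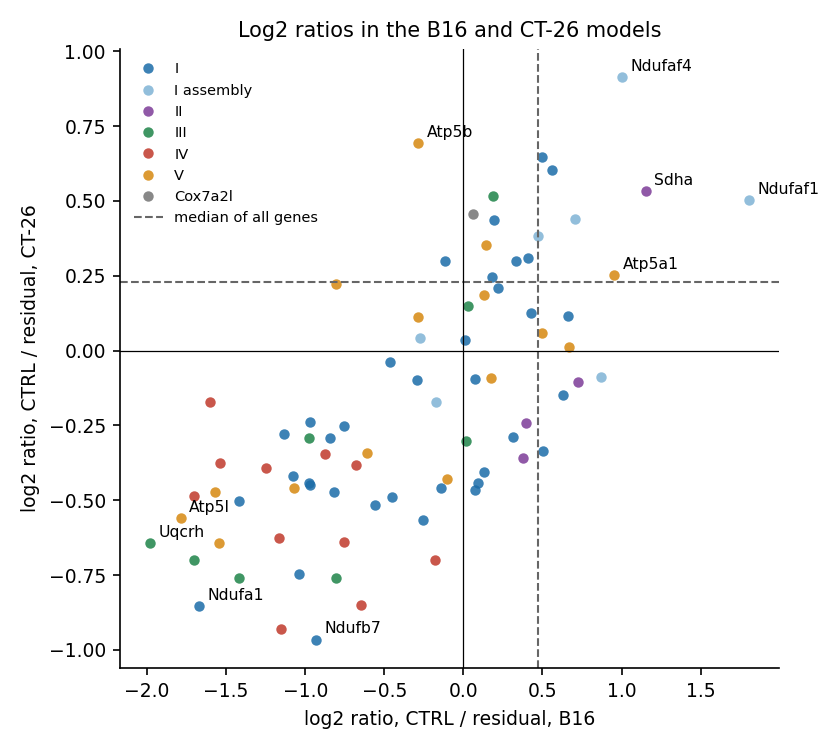
Log2 ratio, CTRL over residual, of the 82 members at the level in both models, with B16 on the horizontal and CT-26 on the vertical axis, coloured by complex. Dashed lines are the medians of all genes, 0.47 in B16 and 0.23 in CT-26; 41 members lie below 0 in both models and 23 above 0 in both.

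A fit over all 4 libraries treated the models as replicates of the comparison, with 1 residual degree of freedom. By edgeR's quasi-likelihood test, 0 of 87 members and 0 of 18749 genes (0% as background) passed an adjusted p of 0.05. At an unadjusted p under 0.05 stood 12 members, all lower in CTRL, which is 13.8% of the members and below the 16% of all genes in either direction. Of all genes, 9.72% were lower and 6.27% higher at that p, and with RLE size factors 11 members were lower and 1 was higher. The lowest adjusted p among members by edgeR's test was 0.257, for Ndufb7 with a log2 fold of -1.10 (SE 0.284) and for Cox6b1 with -1.19 (SE 0.309). Both genes had ratios below 0 in 2 of 2 models. DESeq2 called 1 member, Cox6b2, with an adjusted p of 2.24e-07 and a log2 fold of -5.51, where it called 9.05% of 19887 genes. For the same gene edgeR gave an adjusted p of 0.326 with a log2 fold of -5.56 (SE 2.12).

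By level per length, in CPM divided by the transcript's length in kilobases, the top genes belonged to ATP synthase and complex IV, while complex I, with the most genes, held the largest summed share in all libraries except the B16 residual one. Atp5b was the highest member in both CTRL libraries, at 548 in B16 and 546 in CT-26, and had 372 and 295 in the residual libraries, where it ranked 6 and 5. Cox6a1 was the highest in the B16 residual library, at 724, and ranked 2 in each of the other libraries. Cox8a was the highest in the CT-26 residual library, at 460. Cox6b2 ranked 14 in the B16 residual library, at 250, and 86, 80 and 85 in B16 CTRL, the CT-26 residual library and CT-26 CTRL. The order of the 89 detected members agreed most between the CTRL libraries (Spearman 0.97) and least between the B16 residual library and CT-26 CTRL (0.85). Subunits of complex IV held 34.4% of the members' summed level per length in the B16 residual library and 24.8% in B16 CTRL, and 28.8% and 23.3% in CT-26. The members together took 0.847% of reads in genes in the B16 residual library and 1.12% in B16 CTRL, and 0.842% and 0.901% in CT-26. Without haemoglobin and mitochondrially encoded genes these shares were 1.48%, 1.14%, 0.947% and 0.909%, so the order of the residual and CTRL libraries turned in both models.

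The lists of genes around the chain were counted in the same way, beside the same shares over all genes (26.8% higher and 11.7% lower in B16, 14.5% and 16.3% in CT-26). Of 16 TCA cycle genes, which feed the chain with NADH and succinate, 4 were higher in B16 CTRL, which is 25% and close to the share over all genes, and none was lower, with a median of 0.87. In CT-26 none was higher and none was lower, with a median of 0.37. Suclg2, of succinyl-CoA synthetase, had 1029 normalized counts in B16 CTRL and 359 in the residual library, and 3554 and 1800 in CT-26. Its ratios were 1.52 and 0.98. Idh3a, of NAD-dependent isocitrate dehydrogenase, had ratios of 1.69 and 0.94, and Suclg1 had 0.94 and 0.78.

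Of the regulators of mitochondrial biogenesis, 14 were at the level in each model. In B16, 7 were higher, which is 50% against 26.8% of all genes, and 1 was lower, with a median of 0.98. In CT-26, 6 were higher, which is 42.9% against 14.5%, and none was lower, with a median of 0.81. Ppargc1b, a coactivator of nuclear genes for mitochondria, had 640 and 214 normalized counts in B16 and 3206 and 1308 in CT-26, with ratios of 1.57 and 1.29. Polrmt, the mitochondrial RNA polymerase, had ratios of 1.80 and 1.17, and Opa1, which fuses inner membranes, had 1.48 and 1.05. The gene that was lower in B16 was Yy1, at -1.15. Nrf1 itself had 0.95 and 0.41, and Gabpa, an ETS factor, had 1.08 and 0.59.

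Of the assembly factors outside the name rule, 10 were higher and 1 was lower of 30 at the level in B16, with a median of 0.56, and 4 were higher and 1 was lower of 32 in CT-26, with a median of 0.30. The shares higher were 33.3% and 12.5%, near the 26.8% and 14.5% of all genes. Uqcc1, for complex III, had ratios of 1.41 and 1.08, Sco1, a copper carrier for complex IV, had 1.07 and 1.44, and Cox10, of heme A synthesis, had 1.15 and 1.06. Among cytochrome c and the carriers, 1 was higher and 1 was lower of 6 at the level in each model. Slc25a4, an ADP/ATP carrier, was higher, with 3752 and 1648 normalized counts in B16 and 10428 and 4393 in CT-26 and ratios of 1.19 and 1.25. Atpif1, the inhibitor of ATP synthase, was lower, with 855 against 6571 in B16 and 1092 against 2229 in CT-26 and ratios of -2.94 and -1.03. Cycs, cytochrome c itself, had 1708 against 2466 in B16 and 2854 against 3977 in CT-26, with ratios of -0.53 and -0.48. Cyc1, the cytochrome c1 of complex III, lies outside the name rule and had 0.59 and 0.38.

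The 10 subunits encoded in mitochondrial DNA at the level were all lower in B16 CTRL, from -2.03 to -1.13 with a median of -1.55. In CT-26 none was higher or lower, with a median of -0.05. All 13 such subunits together took 0.160% of reads in the B16 residual library and 0.0946% in B16 CTRL. In CT-26 they took 0.0718% in the residual library and 0.085% in CTRL. All mitochondrially encoded genes, with those that code for no subunit, took 0.784% in the B16 residual library and 0.130% in B16 CTRL. In CT-26 they took 0.285% in the residual library and 0.171% in CTRL, the opposite direction to the subunits. Nuclear complex IV genes and the mitochondrially encoded subunits thus lay on the same side in B16.

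The promoter windows of the members were searched for the motifs GCGCATGC (NRF1), CCGGAAG (ETS) and AAGATGGC (YY1) on both strands, which are factors known to bind at such genes. RefSeq windows on GRCm38.p6 were matched for 76 of the 92 members, in 81 windows. At least 1 motif stood in 42.0% of these windows, beside 16.7% of 21263 windows of coding genes and 13.3% of all 32851 windows. The NRF1 motif stood in 14.8% of members' windows and 3.52% of those of coding genes, the ETS motif in 22.2% and 11.6%, and the YY1 motif in 13.6% and 3.05%. Members with any of the motifs had a median ratio of -0.45 in B16 and -0.40 in CT-26 over 34 genes. Members with a window and no motif had -0.14 over 39 genes in B16 and -0.16 over 36 in CT-26. The motifs differed in this. Members with the ETS motif had -0.82 in B16 and those without it -0.10, while members with the NRF1 motif had -0.13 and those without it -0.18. In CT-26 both the ETS and the NRF1 members had -0.38, beside -0.17 and -0.26 without the motif, and YY1 members had -0.27 in B16 and -0.43 in CT-26, beside -0.18 and -0.24. Members with and without a motif were not matched by transcript length or role, and the part of either in these medians was not tested. A match describes the letters of a window and shows no binding.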

How the data were processed

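The kit was Takara SMART-Seq v4 for ultra-low input, per the labels' protocols. Names of tools in the submitters' processing notes are HTSeq 0.11.2, STAR 2.7.3a and DESeq2, with the build mm10 and no roles; a strand setting of the counting is given in no source used here, and 27 members overlap exons of another gene. The authors deposited raw read counts per gene, normalized counts (a signal, per the file headers), a log2 fold and an unadjusted p-value; the authors' p-value is not used. Dividing raw by normalized counts gave size factors between 0.766 and 1.31. Models were normalized separately, so normalized counts were compared only within a model.

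Ratios used a pseudocount of 1, and 10 CPM equals between 372 and 749 reads. Transcript lengths and positions came from GENCODE M21, and near-identical copies (at least 95% identity over 50% of the transcript, BLAST+ 2.17.0) were found for 13 members. The length of a gene was the median over its best-ranked coding transcripts. It can therefore lie between unlike transcripts, as for Ndufb2 (2413 bases) and Ndufab1 (2447.5 bases), and the length class of such genes is uncertain. The fit used edgeR 4.0.16 on raw counts (terms for model and population, TMM, filterByExpr, Benjamini-Hochberg adjustment), with DESeq2 1.42.0 as an alternative. It was also run on simulated data, with an outcome that is not given here. Nothing says the models came from separate sorts or days, so the fit's p-values measure only the spread between these libraries. Named genes were the extremes of each complex and model, fixed core subunits, restricted isoforms and their partners, the subunit c genes, and up to 3 genes of each list around the chain whose ratios had 1 sign in both models, ranked by the smaller of the pair. A gene that this rule takes is not reported here. Other named genes were chosen after their values were seen. Members, lists and motifs were chosen with earlier results of these data known.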

Additional observations from a re-analysis of the deposited data

Results flagged for a closer look

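For 4 of the 82 members at the level of 10 CPM in both models, the log2 ratios, CTRL over residual, had opposite signs in the models and were at least 0.25 in size in both. The share of all genes that meet this rule is not given here. Ndufc2, a small accessory subunit of complex I, had 0.50 in B16 and -0.34 in CT-26. Ndufs8, an iron-sulfur core subunit of complex I, had 0.31 and -0.29. Sdhb, the iron-sulfur subunit of complex II, had 0.38 and -0.36. Atp5b, the beta subunit of ATP synthase, had -0.28 and 0.69, the only one of the 4 with a ratio above 0 in CT-26. Scaled to all reads in genes, Atp5b had 0.56 in B16 and 0.89 in CT-26, so its signs no longer differed. The other 3 kept theirs, but their CT-26 values, between -0.16 and -0.096, were short of 0.25 in size. With the deposited normalized counts, the medians of all genes were 0.47 in B16 and 0.23 in CT-26. Ndufs8 and Sdhb lay below these medians in both models. Ndufc2, only 0.03 above in B16, and Atp5b lay on different sides of them. With 1 library per group the difference between the models was not tested for any of the 4 members.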

How the results depend on the processing

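The fit over both models pairs the libraries of a model by its model term; without that term it also called 0 members, with a median of -0.38. No library could be left out within a model with 1 library per group. Scaled to all reads in genes, B16 counted 28 members higher, 2 lower and a median of 0.66, and CT-26 1 higher and a median of -0.091. The median of all genes was itself past 2-fold in B16 under that scaling. At 1.5-fold the counts were 12 higher and 34 lower in B16 and 4 and 13 in CT-26, and at 4-fold 0 and 1 in B16. The shares over all genes at these limits are not given, so the counts show only how the calls move with the limit. A level of 1 CPM gave 2 lower in CT-26 and a distance of 0.64 between the highest and lowest complex. Without members that are no subunits, 1 was higher in B16, and the median in the fit was -0.56. The fold of the authors' deposited table gave 1.57 for that distance in B16. Among members with transcripts of 1000 bases or more, an alternative added after the data were seen, 1 was lower in B16 and the medians were 0.35 and 0.21, with a distance of 2.16 in B16. That distance rests on few genes, as only 6 of these 36 members lay below 0 in B16, the lowest at -1.60. In the main fit the members' median was -0.35, beside -0.12 for all genes. Library totals, no filter and DESeq2 each called 1 member lower, where they called 747 of 18749, 987 of 40101 and 9.05% of 19887 genes. With library totals the members' median turned to 0.32, where all genes had 0.55. No filter gave -0.13 against -0.87 for all genes, and DESeq2 gave -0.26 against -1.04, so the members lay above all genes there. Single values of members kept their sign wherever they were past 2-fold. The kit adds no molecular identifiers, so copies made by PCR count as reads and the intervals are too narrow for molecules; isoforms under the level rest on few reads.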
